A study of Mus musculus with 24 samples.

Results

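The intestinal stem cell genes described here are 10 genes chosen by name, Lgr5, Olfm4, Ascl2, Smoc2, Axin2, Rnf43, Znrf3, Sox9, Lrig1 and Cd44, and all 10 were found among the 24421 rows of the expression table. RNA came from sorted epithelium of C57BL/6 mice aged 8 to 14 weeks, taken as CD45-negative cells that were positive for a tomato reporter under Villin, a gene of the epithelial brush border that is active in villus and crypt cells alike. Each of 12 mice gave 1 colon and 1 ileum library, so that there were 24 libraries in 8 groups. Per tissue these were KO chimeras 8 weeks after chimerism (KO late, n = 3, mice 49, 50 and 57), KO chimeras at 2 weeks (KO early, n = 4, mice 100, 117, 118 and 120), irradiated wild-type mice 8 weeks after chimerism (WT irradiated, n = 2, mice 59 and 61) and untreated, non-irradiated wild-type mice (WT non-irradiated, n = 3, mice 72, 73 and 75). The series title names macrophages deficient in IL-10Rα and an epithelial response to IL-22, while the sample labels say KO without naming a gene, cell type or transgene. WT irradiated mice were taken at 8 weeks only, so KO early mice have no control of their own time, and time and genotype cannot be told apart in their comparisons with WT. Nothing in the labels says which host cells the chimeras kept.

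Stem cells at the base of intestinal crypts divide and renew the epithelium, and Wnt signals from neighbouring cells keep them in that state. Wnt ligands stabilise beta-catenin, which acts with TCF factors on target genes such as Lgr5, Axin2, Ascl2 and Sox9. Several of these targets feed back on the pathway. Axin2 takes part in destroying beta-catenin, and the membrane E3 ligases Rnf43 and Znrf3 remove Wnt receptors from the cell surface, which R-spondins prevent by binding the receptor Lgr5. Olfm4, a secreted glycoprotein, marks stem cells of the mouse small intestine and is known to be little expressed in mouse colon. Smoc2 is a secreted matrix protein enriched in Lgr5-positive cells, Ascl2 a transcription factor that stem cell identity depends on, Lrig1 a membrane protein that dampens ErbB signalling, and Cd44 a hyaluronan receptor of crypt cells and of leukocytes.

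Libraries held 8.32 to 18.7 M reads in genes. Levels are given as normalised reads, that is, reads after division by the size factor of the library. Over the 24 libraries the members had between 0 reads (Ascl2) and 8825 reads (Olfm4), with medians of 9 reads for Ascl2, 88 for Sox9 and 240 to 1494 for the others. All 10 members passed the filter of 10 normalised reads in at least 2 libraries in both tissues, Ascl2 in colon with 2 libraries only. The epithelial genes Epcam and Vil1 were at or above 10192.5 normalised reads in every library. Ptprc, which encodes CD45, was at 156.7 to 472 normalised reads although the sort excluded CD45-positive cells. Il10ra had 1.6 to 31.2 normalised reads, which could not check the KO label in epithelium. In bulk RNA, fewer stem cells and less RNA per stem cell cannot be told apart, and this holds for every member below.

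One property of the libraries moved with several members. Reads in 1462 olfactory and vomeronasal receptor genes, taken as a measure of background, were at 943 ± 166 per M reads in KO late colon, 554 ± 110 in KO early colon, 413 ± 253 in WT irradiated colon and 382 ± 259 in WT non-irradiated colon (SD). In ileum they were at 380 ± 85.6 in KO late, 545 ± 201 in KO early, 290 ± 173 in WT irradiated and 308 ± 99.3 in WT non-irradiated mice. WT colon libraries split on this measure, at 234 and 592 in WT irradiated mice 59 and 61 and at 232, 233 and 682 in WT non-irradiated mice 72, 73 and 75. Values with this measure as a covariate are given beside several of the results. All KO late colon libraries (752 to 1052 per M) lay above every other colon library, of which the highest was a KO early one at 693. The KO late group and this measure therefore cannot be told apart in colon, and the covariate values there rest on extrapolation. Rn45s, a ribosomal RNA precursor, took 0.0642 to 29.4% of reads and more than 10% in 9 libraries, among them 3 of the 4 KO early ileum libraries and neither of the WT irradiated ones.

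RefSeq promoter windows (build GRCm38.p6, 250 bases before to 50 after a start site) were at hand for Axin2, Lrig1, Rnf43, Olfm4, Ascl2 and Cd44, with both of the windows listed for Rnf43, while Lgr5, Smoc2, Znrf3 and Sox9 were not matched. That build differs from mm9, the build named in the submitters' processing notes, and only sequences and their own coordinates are taken from it. The windows of Axin2, Lrig1 and Rnf43, which varied together across colon libraries, and of Olfm4, which differed most between the tissues, are shown 5′ to 3′ on the gene's strand. Axin2 lies at chr11:108920099-108920398 (+), Lrig1 at chr6:94700096-94700395 (-), Rnf43 (second window) at chr11:87699647-87699946 (+) and Olfm4 at chr14:80000052-80000351 (+). Capitals mark the SOX motif AACAAT or its reverse complement.
Axin2: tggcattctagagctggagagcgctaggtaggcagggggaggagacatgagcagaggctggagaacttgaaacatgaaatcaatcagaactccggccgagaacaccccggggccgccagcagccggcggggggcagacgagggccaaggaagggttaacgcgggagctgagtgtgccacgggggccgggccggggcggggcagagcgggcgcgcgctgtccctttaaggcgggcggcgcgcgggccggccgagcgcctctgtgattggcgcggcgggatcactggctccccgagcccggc
Lrig1: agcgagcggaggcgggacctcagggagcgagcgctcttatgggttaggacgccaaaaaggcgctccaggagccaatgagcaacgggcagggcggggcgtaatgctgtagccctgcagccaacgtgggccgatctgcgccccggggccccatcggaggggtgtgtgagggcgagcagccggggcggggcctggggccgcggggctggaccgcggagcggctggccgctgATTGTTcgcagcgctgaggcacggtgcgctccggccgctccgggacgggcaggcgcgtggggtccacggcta
Rnf43: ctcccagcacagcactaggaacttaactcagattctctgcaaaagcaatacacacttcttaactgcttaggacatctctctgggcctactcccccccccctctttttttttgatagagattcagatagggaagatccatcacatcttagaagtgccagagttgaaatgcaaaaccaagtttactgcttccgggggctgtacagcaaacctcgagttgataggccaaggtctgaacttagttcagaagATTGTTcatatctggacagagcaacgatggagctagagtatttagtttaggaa
Olfm4: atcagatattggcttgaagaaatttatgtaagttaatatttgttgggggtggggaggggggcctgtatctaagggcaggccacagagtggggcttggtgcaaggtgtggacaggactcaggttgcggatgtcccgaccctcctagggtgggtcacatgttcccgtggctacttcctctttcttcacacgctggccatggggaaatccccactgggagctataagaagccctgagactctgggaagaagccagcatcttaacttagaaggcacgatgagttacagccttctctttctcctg
The SOX motif was found in 2 of the 7 windows of these genes, as ATTGTT at -22 in Lrig1 and at -3 in Rnf43 counted from the start site, and in 10.7% of all 32851 windows. None of the 7 held the TCF/LEF motif (CTTTGAT or CTTTGTT), the STAT motif (TTCNNNGAA) or the E-box CAGCTG on either strand, which 9.33, 8.30 and 16.3% of all windows held. These are matches of letters in short windows and say nothing of binding elsewhere.

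**Figure D1:**
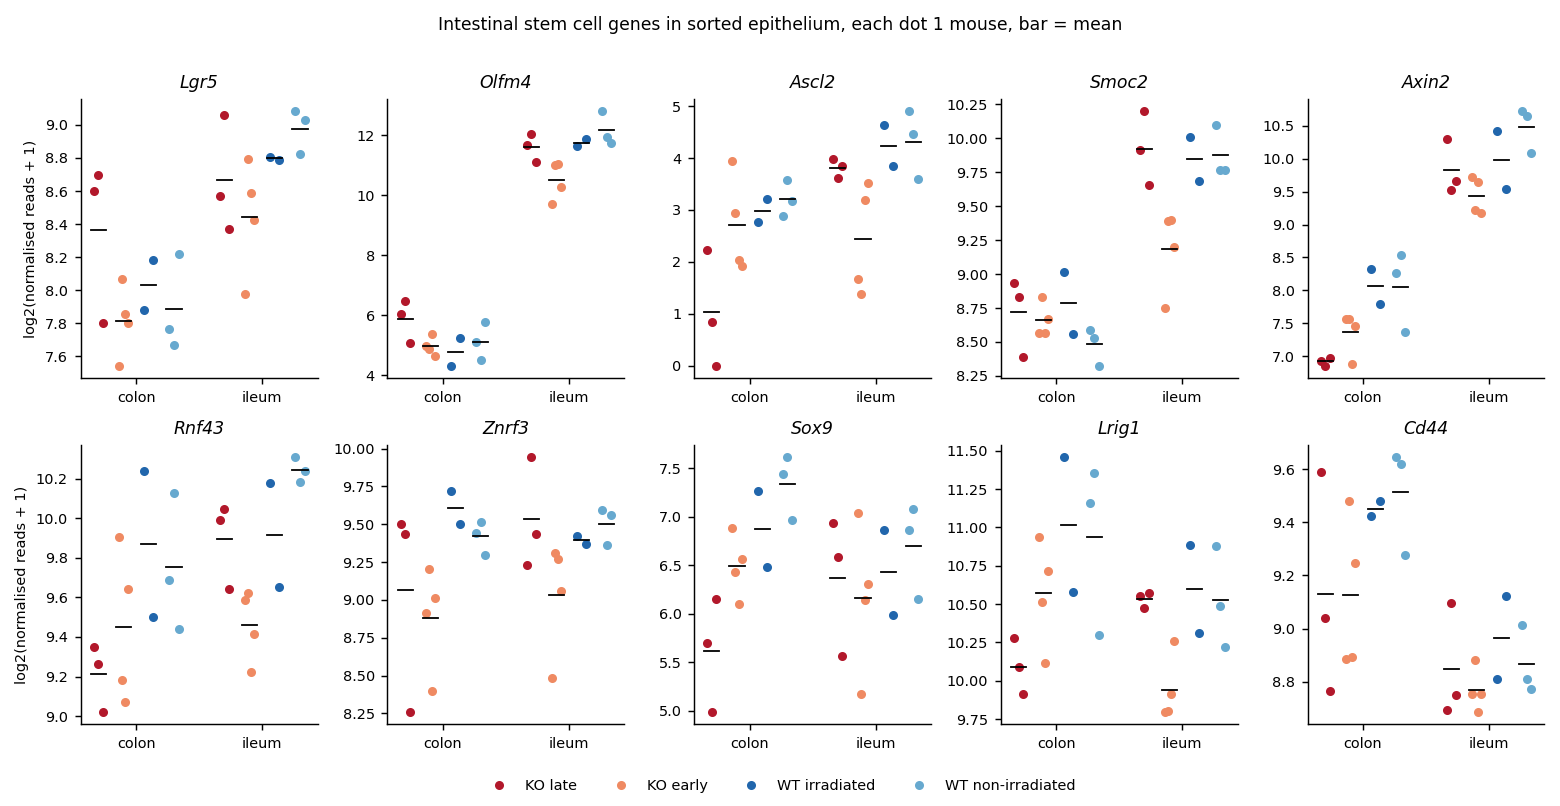
Level of each stem cell gene as log2(normalised reads + 1) in colon (left) and ileum (right), with 1 dot per mouse and a bar at the group mean, groups from left to right KO late, KO early, WT irradiated and WT non-irradiated. Olfm4, Smoc2 and Axin2 lay lower in colon than in ileum of every mouse, and KO late colon held the lowest group means of Ascl2, Axin2, Rnf43 and Sox9.

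The sharpest contrast among the members was between the tissues. In WT mice, colon against ileum, limma called 5 of the 10 members at an adjusted p under 0.05, of which 4 were lower in colon (Olfm4, Axin2, Smoc2 and Lgr5) and 1 was higher (Cd44), where 21.6% of all genes tested were called (10.9% lower and 10.8% higher). Olfm4 had 32.6 ± 13.6 normalised reads in WT colon and 4269 ± 1591 in WT ileum (SD, n = 5 mice each). Its log2 fold change was -7.01 ± 0.32 (± SE) with an adjusted p of 1.77e-13. Axin2 had 277 ± 83.1 and 1295 ± 387 (-2.17 ± 0.24, adjusted p = 2.86e-07). Smoc2 had 393 ± 73.6 and 937 ± 118 (-1.23 ± 0.17), and Lgr5 248 ± 43.2 and 480.3 ± 47 (-0.93 ± 0.20, adjusted p = 0.00134). Cd44 was higher in colon, at 720.4 ± 73.7 against 481 ± 52.5 (0.57 ± 0.17, adjusted p = 0.0163). Cd44 was not called without WT non-irradiated mouse 73 (adjusted p = 0.0612). Nor was it called without WT irradiated mouse 59 or 61, or without the libraries with over 10% Rn45s, settings that left a single library in a WT group. Lgr5 was not called on reads per M without Rn45s (adjusted p = 0.0678). Ascl2 was at -1.18 with an adjusted p of 0.108, and its WT colon and ileum libraries did not overlap. Rnf43, Znrf3, Sox9 and Lrig1 did not pass, with 95% intervals of -0.67 to 0.13, -0.40 to 0.53, -0.17 to 1.25 and -0.04 to 0.87.

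In KO late mice, colon against ileum, 5 members were called, all lower in colon, where 28% of genes were called and 17% as lower. They were Olfm4 (-5.75 ± 0.41), Axin2 (-2.91 ± 0.31), Ascl2 (-2.78 ± 0.64), Smoc2 (-1.20 ± 0.21) and Rnf43 (-0.68 ± 0.24, adjusted p = 0.0403). The median of well expressed genes, those averaging 100 normalised reads or more, was shifted by -0.32 there. With each library centred at that median Rnf43 was at -0.42 with an adjusted p of 0.121, while the other 4 were called. Leaving out any 1 of the 3 KO late mice ended the call of Rnf43 (adjusted p = 0.138, 0.163 and 0.0916 without mice 49, 50 and 57). Without the libraries with over 10% Rn45s, which kept mouse 57 as the only KO late ileum library, Smoc2 was at -0.93. In KO early mice Olfm4 (-5.54 ± 0.35) and Axin2 (-2.07 ± 0.26) were called as lower, where 14.2% of genes were called and 6.43% as lower. With the mouse as a replicate block 5 members and 18.1% of genes were called there, which added Lgr5 (-0.63, adjusted p = 0.0104) and Smoc2 (-0.53, adjusted p = 0.0246) as lower and Lrig1 (0.63, adjusted p = 0.0211) as higher in colon. Differences between genotypes in these values are tested further on.

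Within each mouse the direction was the same in all 12 for Olfm4, Smoc2 and Axin2, which were lower in colon than in ileum of the same animal. The difference ran from -7.70 to -4.73 on the log2 scale for Olfm4 and from -3.37 to -1.64 for Axin2. Lgr5 was lower in colon in 11 of 12 mice, Ascl2 in 10 and Rnf43 in 9. Cd44 was higher in colon in 11 of 12 mice, Lrig1 in 9 and Sox9 in 8. Znrf3 was higher in colon in 5 mice and in ileum in 7, within -1.17 to 0.43. Ascl2 spread most, from -3.84 to 2.26, and was higher in colon only in 2 KO early mice, whose ileum libraries held 1 and 2 reads of it.

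Ranked by group mean, Olfm4 was highest in WT non-irradiated ileum (4812 ± 1971 normalised reads) and lowest in WT irradiated colon (27.6 ± 12.4). Its ranges were apart between KO late and KO early ileum and between KO early ileum and KO late colon, and overlapped between all other neighbours in that order. Axin2 ran from 1454 ± 324 in WT non-irradiated ileum to 120.2 ± 4.81 in KO late colon, with ranges apart between KO early ileum and WT non-irradiated colon and between KO early colon and WT irradiated colon. Lgr5 ran from 505 ± 46.8 in WT non-irradiated ileum to 226 ± 33.5 in KO early colon, with the 2 WT ileum groups apart and all lower neighbours overlapping. Neighbouring groups of Znrf3, Sox9 and Cd44 overlapped at every step of their order.

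**Figure D2:**
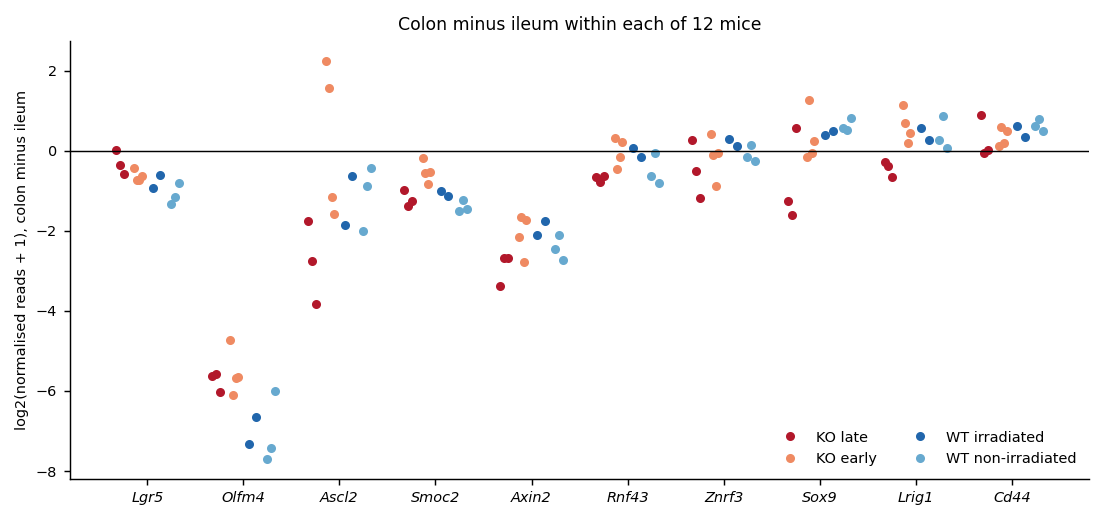
Colon minus ileum difference of log2(normalised reads + 1) within each of the 12 mice for the 10 stem cell genes, with dots grouped from left to right as KO late, KO early, WT irradiated and WT non-irradiated and a line at 0. Olfm4, Smoc2 and Axin2 lie below 0 in all 12 mice and Cd44 above 0 in 11.

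Other genes of the crypt also differed between WT colon and ileum. The counts of called genes in this paragraph stand beside 21.6% of all genes called there, 10.9% as lower and 10.8% as higher in colon. Of 20 cell cycle genes 15 were lower in colon, among them Mcm4 (-1.18 ± 0.25), Birc5 (-1.30 ± 0.29), Mcm6 (-1.05 ± 0.25) and Top2a (-1.19 ± 0.31), and 1 was higher. The same list had 15 genes lower and 0 higher in KO late mice, where 28% of all genes were called and 17% as lower. In KO early mice it had 0 lower and 1 higher, where 14.2% were called and 6.43% as lower. Of 12 Wnt ligands and R-spondins only Wnt3, the ligand made by Paneth cells, was called (-1.89 ± 0.33). Of 12 receptors 4 were higher in colon, with Fzd8 at 2.09 ± 0.31 and the co-receptor Lrp6 at 1.00 ± 0.16, and 3 were lower, with Ryk at -0.78 ± 0.13 and Fzd7 at -1.37 ± 0.28. Of 16 beta-catenin pathway components, the TCF factors Tcf7l1 (2.72 ± 0.26) and Tcf7l2 (1.20 ± 0.25) were higher and Bcl9 (-0.52 ± 0.18) was lower. Of 15 other Wnt target and feedback genes, Sp5 (-3.69 ± 0.49), Ccnd1 (-1.70 ± 0.33) and Prox1 (-0.92 ± 0.24) were lower and Ephb3 (0.96 ± 0.30) was higher. Of 15 other genes reported for intestinal stem cells, Prom1 was higher (2.33 ± 0.22) and Igfbp4 (-2.18 ± 0.31), Cdca7 (-0.93 ± 0.24) and Msi1 (-1.11 ± 0.28) were 3 of the 4 that were lower. Among 10 Notch pathway genes tested, the ligands Dll1 (-2.05 ± 0.27) and Dll4 (-1.09 ± 0.33) and the receptor Notch2 (-0.73 ± 0.15) were lower, and Atoh1 (0.99 ± 0.29), a factor of secretory cells, was 1 of 2 that were higher. Of 11 regeneration-associated genes tested 5 were higher in colon, among them Anxa1 (6.52 ± 0.29) and Ly6a (5.44 ± 0.42), and 1 was lower. Of 14 BMP pathway genes tested, Bmp2 (1.12 ± 0.27) and Smad1 (0.48 ± 0.17) were higher, and Bmp7 (-1.10 ± 0.27) and Id2 (-0.89 ± 0.23) were lower. Markers of Paneth cells, which sit beside stem cells in ileum, differed with the tissue as well. The lysozyme gene Lyz1 was at 12.4 to 145 normalised reads over colon libraries and 1055 to 19821 over ileum libraries. In every colon group 4 of the 8 markers of that list averaged under 10 normalised reads, while some of the others were above Lyz1 in WT colon. The sum of all 8 was 2804 to 4926 in WT irradiated and 4398 to 8809 in WT non-irradiated colon, against 16784 to 18745 and 11300 to 40082 in ileum.

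KO late colon against WT irradiated colon compares epithelium 8 weeks after chimerism. No member was called by limma, where 1.03% of genes were, and edgeR called 0 members while DESeq2 called Axin2 and Sox9 (4.2% of genes). At an unadjusted p under 0.05 limma gave 5 members, Ascl2, Axin2, Sox9 and Lrig1 as lower and Olfm4 as higher, where 16.5% of genes had such a p. All KO late libraries lay below both WT irradiated ones for 5 members (Ascl2, Axin2, Rnf43, Sox9 and Lrig1), where 18.5% of genes lay apart in that direction. The median log2 fold change over the 10 members was -0.60, and that over all genes tested -0.01. Well expressed genes were shifted by -0.17. With receptor reads as a covariate Sox9 was at -0.56, Axin2 at -0.46 and Rnf43 at -0.12 in this comparison, and 0 members were called. Since the KO late group and receptor reads cannot be told apart in colon, the part of either was not tested. Taking both WT groups together as control (5 mice), a choice made after the data were seen, limma called Sox9 and Axin2 as lower in KO late colon, where 4.12% of genes were called and 2.5% as lower.

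Sox9, a transcription factor of crypt base and secretory cells, had the smallest p against both WT groups. In colon, Sox9 had 50.8, 30.8 and 70.0 normalised reads in KO late mice and 117, 85.5, 67.6 and 93.5 in KO early mice, against 153 and 88.5 in WT irradiated and 172, 194 and 124 in WT non-irradiated mice. All KO late values lay below all WT values. Sox9 averaged 50.5 ± 19.6 normalised reads in KO late colon (SD, n = 3) and 146 ± 41.4 in WT colon (n = 5), and its log2 fold change was -1.49 ± 0.31 with an adjusted p of 0.0173. Against WT irradiated mice alone it was -1.26 ± 0.39 (adjusted p = 0.175), and against WT non-irradiated mice alone -1.72 (adjusted p = 0.0202). In ileum, Sox9 had 121.5, 94.9 and 46.5 normalised reads in KO late mice and 131, 35, 69.5 and 78.3 in KO early mice, against 116 and 62.4 in WT irradiated and 115, 134 and 70.1 in WT non-irradiated mice. The ileum groups overlapped, with -0.06 ± 0.53 for KO late and -0.26 ± 0.50 for KO early against WT irradiated.

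Axin2, the feedback inhibitor that is read as a gauge of Wnt signalling, was tight in KO late colon. In colon, Axin2 had 121, 115 and 124 normalised reads in KO late mice and 188, 189, 116.5 and 174.5 in KO early mice, against 321 and 221 in WT irradiated and 306, 371.5 and 164 in WT non-irradiated mice. The 3 KO late values lay below every WT value, and KO early mouse 118 lay among them. Against both WT groups Axin2 was at -1.14 ± 0.28 in KO late colon (adjusted p = 0.0381) and -0.69 ± 0.26 in KO early colon (adjusted p = 0.269), and against WT irradiated mice at -1.14 ± 0.35 (adjusted p = 0.17) and -0.70 ± 0.33 (adjusted p = 0.785). In ileum, Axin2 had 1260.2, 738 and 805 normalised reads in KO late mice and 840.2, 593, 797 and 579 in KO early mice, against 1374 and 740.0 in WT irradiated and 1682, 1597 and 1083 in WT non-irradiated mice. Every ileum value was above every colon value, and KO late against WT irradiated ileum was at -0.15 ± 0.32.

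Both calls depended on single libraries. Without KO late mouse 49, KO late mouse 50 or WT irradiated mouse 59, no member was called against both WT groups, with adjusted p of 0.0568, 0.116 and 0.0894 for Sox9 and 0.114, 0.155 and 0.175 for Axin2. Sox9 alone was called without KO late mouse 57 or WT non-irradiated mouse 72 or 73. Without WT non-irradiated mouse 75, 6 members and 38.5% of genes were called. Of these members Sox9, Axin2, Ascl2, Lrig1 and Rnf43 were lower in KO late colon and Olfm4 was higher. The colon library of mouse 75 had the most receptor gene reads among the WT libraries. With receptor reads as a covariate Sox9 was at -0.75 (adjusted p = 0.367) and Axin2 at -0.42 (adjusted p = 0.551). Leaving out the libraries with over 10% Rn45s kept mouse 75 as the only WT non-irradiated colon library. Sox9 and Axin2 were then at -1.31 and -0.79. Well expressed genes were shifted by -0.20 in this comparison, and with centred libraries both kept their calls, at -1.31 and -0.95. Summed leukocyte markers (17 genes) were at 941 to 1504 normalised reads in KO late colon, 542.5 to 876 in WT irradiated colon and 532.5 to 1038 in WT non-irradiated colon, and 16 of 16 tested were positive in KO late against WT irradiated colon. Against both WT groups limma called 3 of 6 enteroendocrine, 1 of 5 tuft and 1 of 8 goblet cell markers tested as lower in KO late colon, where 2.5% of genes were. Chga of enteroendocrine cells averaged 63.6 in KO late colon against 662 in WT colon (-3.34 ± 0.34), and Trpm5 of tuft cells 59.2 and 201 (-1.73 ± 0.24). Summed Paneth cell markers (8 genes) were at 268 to 294 normalised reads in KO late, 2804 to 4926 in WT irradiated and 4398 to 8809 in WT non-irradiated colon. In each of these groups 4 of the 8 averaged under 10 normalised reads. The sum thus rests on the other markers of the list and is no measure of Paneth cell number. Against WT irradiated colon limma called 2 of the 5 Paneth cell markers tested, where 1.03% of genes were called. Summed goblet cell markers were at 65992 to 165476 in KO late, 149932 to 452990 in WT irradiated and 255895 to 451237 in WT non-irradiated colon, so that KO late and WT irradiated mice overlapped. The part of these markers in the members' differences was not tested.

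Ascl2 was near the limit of detection in colon. In colon, Ascl2 had 3.7, 0.8 and 0 normalised reads in KO late mice and 14.3, 6.7, 3.1 and 2.8 in KO early mice, against 5.8 and 8.2 in WT irradiated and 6.4, 10.9 and 8 in WT non-irradiated mice. The KO late libraries held 3, 1 and 0 reads, and 0 reads in mouse 57 allows up to 2.96 normalised reads (3 reads, counting error only). KO late colon was at -1.96 ± 0.75 against WT irradiated (adjusted p = 0.264) and -2.07 ± 0.61 against both WT groups (adjusted p = 0.0697), on a scale that understates changes at such low values. In ileum, Ascl2 had 14.7, 11.2 and 13.3 normalised reads in KO late mice and 2.2, 1.6, 8.1 and 10.4 in KO early mice, against 23.7 and 13.3 in WT irradiated and 28.8, 20.9 and 11.1 in WT non-irradiated mice. Here all 4 KO early values lay below both WT irradiated values.

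Lrig1, the brake on ErbB signalling, and the receptor-removing ligases Rnf43 and Znrf3 also had negative differences in KO late colon, none of them called against WT irradiated mice. Against both WT groups they were at -0.88 ± 0.29, -0.60 ± 0.26 and -0.45 ± 0.28 (limma adjusted p = 0.0863, 0.125 and 0.253). Lrig1 and Rnf43, but not Znrf3, passed as lower in some other settings of that comparison. In colon, Lrig1 had 1239, 1089 and 962 normalised reads in KO late mice and 1957, 1458, 1107 and 1684 in KO early mice, against 2809.9 and 1527 in WT irradiated and 2285, 2618 and 1256 in WT non-irradiated mice. KO late against WT irradiated colon was at -0.92 ± 0.36 (adjusted p = 0.264), and at -0.15 with receptor reads as a covariate. In colon, Rnf43 had 650.3, 613 and 519 normalised reads in KO late mice and 959.6, 579.7, 537.5 and 799 in KO early mice, against 1209 and 723 in WT irradiated and 824, 1118 and 694 in WT non-irradiated mice. Rnf43 was at -0.66 ± 0.32 (adjusted p = 0.311), and at -0.12 with receptor reads as a covariate. KO early mice 100 and 120 lay within the range of WT. In colon, Znrf3 had 723, 690.3 and 306 normalised reads in KO late mice and 481, 589.5, 337 and 516 in KO early mice, against 841 and 723 in WT irradiated and 696, 732 and 628 in WT non-irradiated mice. Znrf3 was at -0.54 ± 0.35 in KO late colon and -0.73 ± 0.33 in KO early colon (adjusted p = 0.377 and 0.776), and KO late mouse 57 stood apart from the other 2 KO late mice.

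Lgr5, the R-spondin receptor that marks the crypt base stem cell, had a positive difference in KO late colon that did not pass. In colon, Lgr5 had 386.5, 415 and 222 normalised reads in KO late mice and 185.5, 267, 231 and 222 in KO early mice, against 235 and 289.9 in WT irradiated and 217, 202 and 297 in WT non-irradiated mice. KO late mice 49 and 50 had the 2 highest colon values, while mouse 57 lay among the WT values. KO late was at 0.33 ± 0.31 against WT irradiated colon (95% interval -0.33 to 0.99) and KO early at -0.22 ± 0.29 (-0.84 to 0.41). In colon, Olfm4 had 64.4, 87.4 and 32.5 normalised reads in KO late mice and 30.4, 28.5, 40.4 and 23.7 in KO early mice, against 18.9 and 36.4 in WT irradiated and 33.1, 21.8 and 53 in WT non-irradiated mice. Olfm4 had 1.08 ± 0.49 in KO late colon (adjusted p = 0.3), and 0.18 with receptor reads as a covariate. Lgr5 was then at -0.20. Neither gene passed the test against WT irradiated mice with or without the covariate. Against both WT groups, Olfm4 passed as higher in KO late colon only when WT non-irradiated mouse 75 was left out.

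The matrix protein gene Smoc2 and the adhesion receptor gene Cd44 were not called in colon. In colon, Smoc2 had 489, 455 and 334 normalised reads in KO late mice and 379, 454.5, 378 and 406 in KO early mice, against 517 and 377 in WT irradiated and 385, 368 and 319.8 in WT non-irradiated mice. KO late was at -0.07 ± 0.25 and KO early at -0.13 ± 0.24 against WT irradiated colon, with intervals of -0.60 to 0.47 and -0.64 to 0.38. In colon, Cd44 had 769, 525.5 and 434 normalised reads in KO late mice and 471, 714, 474 and 606 in KO early mice, against 686 and 712 in WT irradiated and 799, 785 and 619.6 in WT non-irradiated mice. Cd44 was at -0.32 ± 0.28 and -0.33 ± 0.27, and KO late mouse 49 lay within the WT range and the other 2 below it. In KO early against WT irradiated colon limma, edgeR and DESeq2 called 0 members, with 1 at an unadjusted p under 0.05 (Znrf3), where limma called 0.204% of genes and 6.4% had such a p. KO late against KO early colon gave 0 members by all of these tools, with 3 at an unadjusted p under 0.05 (Sox9 -0.88, Ascl2 -1.68 and Olfm4 0.89), where 0.00522% and 10.8% of genes did.

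**Figure D3:**
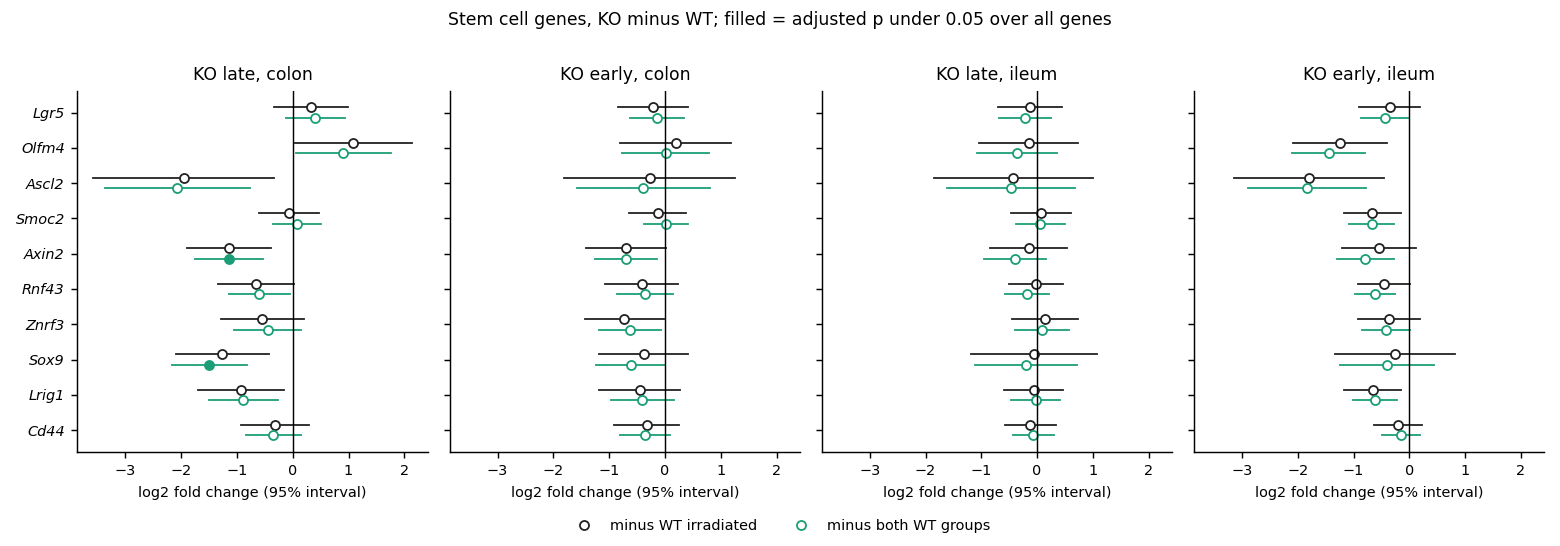
Log2 fold change of each stem cell gene, KO minus WT irradiated (dark) and KO minus both WT groups (green), for KO late and KO early in colon and then in ileum, with bars for the 95% interval and filled points for an adjusted p under 0.05. Filled points are Axin2 and Sox9 in KO late colon against both WT groups, KO late ileum sits around 0, and all KO early ileum points lie below 0.

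In KO early ileum no member was called. Against WT irradiated ileum all 10 members had negative log2 fold changes, with a median of -0.50 beside -0.09 over all genes tested, and 6 had all 4 KO early libraries below both WT irradiated ones (Olfm4, Ascl2, Smoc2, Rnf43, Znrf3 and Lrig1), where 16.9% of genes did. Limma, edgeR and DESeq2 called 0 members. At an unadjusted p under 0.05 limma gave 4 (Olfm4, Ascl2, Lrig1 and Smoc2), where 0% of genes were called and 24.9% had such a p. Well expressed genes as a whole were shifted by -0.28, and with centred libraries Olfm4 was at -0.98, Ascl2 at -1.53, Lrig1 at -0.40, Smoc2 at -0.40 and Cd44 at 0.06. Receptor reads were at 545 per M in KO early and 290 in WT irradiated ileum. With them as a covariate Olfm4 (-1.51), Smoc2 (-0.73), Znrf3 (-0.65), Lgr5 (-0.58) and Cd44 (-0.27) were more negative. Ascl2 (-1.53), Lrig1 (-0.42), Rnf43 (-0.26) and Axin2 (-0.06) were less negative, Sox9 was at 0.56, and no member was called. Leaving out the libraries with over 10% Rn45s kept 1 of the 4 KO early libraries, mouse 117, assumed to vary like the others. Ascl2 was then at -2.85, Sox9 at -1.26, Olfm4 at -0.76, Znrf3 at -0.08 and Lgr5 at -0.0022, none called. The part of either measure in the members' values was not tested.

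Olfm4, the secreted stem cell marker of small intestine, had the lowest p in this comparison. In ileum, Olfm4 had 3241, 4200.3 and 2194 normalised reads in KO late mice and 833.5, 2037, 2119.9 and 1239 in KO early mice, against 3182 and 3729.7 in WT irradiated and 7071, 3920.4 and 3444 in WT non-irradiated mice. The 4 KO early values were the 4 lowest of the 12 ileum values. Olfm4 was at -1.24 ± 0.39 in KO early against WT irradiated ileum (adjusted p = 0.165) and -0.15 ± 0.41 in KO late against WT irradiated ileum. In ileum, Smoc2 had 964, 1173 and 803 normalised reads in KO late mice and 430.1, 671, 674 and 587.5 in KO early mice, against 1031.5 and 822 in WT irradiated and 1093, 868 and 871 in WT non-irradiated mice. Smoc2 again had its 4 lowest ileum values in KO early mice, at -0.66 ± 0.24 (adjusted p = 0.165). In ileum, Lrig1 had 1500.5, 1425 and 1522 normalised reads in KO late mice and 889, 890.2, 963 and 1223 in KO early mice, against 1889.5 and 1269 in WT irradiated and 1879, 1437.5 and 1191 in WT non-irradiated mice. Lrig1 was at -0.66 ± 0.24 (adjusted p = 0.165), and KO early mouse 120 overlapped WT non-irradiated mouse 75.

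The ligases Rnf43 and Znrf3 and the receptors Lgr5 and Cd44 had smaller differences between KO early and WT irradiated ileum than Olfm4, Smoc2 and Lrig1. In ileum, Rnf43 had 1016, 1058 and 799.6 normalised reads in KO late mice and 769, 788, 596.5 and 681.5 in KO early mice, against 1158 and 805 in WT irradiated and 1267, 1163 and 1207 in WT non-irradiated mice. Rnf43 was at -0.45 ± 0.21 in KO early against WT irradiated ileum (adjusted p = 0.205), and all its KO early values lay below every other ileum value. Against both WT groups Rnf43 was at -0.62 ± 0.17, beside -0.62 for Lrig1 and -0.68 for Smoc2, none called by limma. In ileum, Znrf3 had 601, 982 and 691 normalised reads in KO late mice and 357, 634, 617 and 532 in KO early mice, against 685.5 and 659.6 in WT irradiated and 771, 658 and 753 in WT non-irradiated mice. KO early mouse 100 had the lowest Znrf3, and KO early was at -0.36 ± 0.26. In ileum, Lgr5 had 379, 532 and 330.5 normalised reads in KO late mice and 250.5, 443, 384 and 342 in KO early mice, against 447 and 440.3 in WT irradiated and 541, 452 and 521 in WT non-irradiated mice. The same mouse had the lowest Lgr5, which was at -0.35 ± 0.26 in KO early and -0.13 ± 0.27 in KO late ileum. In ileum, Cd44 had 412.5, 547 and 429 normalised reads in KO late mice and 430.1, 471, 411 and 431 in KO early mice, against 448 and 556 in WT irradiated and 516, 447 and 436.5 in WT non-irradiated mice. Cd44 stayed within 411 to 556 normalised reads over all 12 ileum libraries, and KO early was at -0.20 ± 0.20 (95% interval -0.63 to 0.23).

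With both WT groups as control, chosen after the data were seen, KO early ileum again had 10 negative members, of which 7 had an unadjusted p under 0.05, where 32.4% of genes did. Limma called 0 members and 0 genes (0%), with the lowest adjusted p among members at 0.0848, edgeR called 0 and DESeq2 6 (Olfm4, Ascl2, Smoc2, Axin2, Rnf43 and Lrig1), with 16.9% of genes. Without KO early mouse 100, the library with 29.4% of reads in Rn45s, limma called 3 members and 12.7% of genes, and without WT irradiated mouse 61 it called 6 members and 9.94% of genes. KO late against KO early ileum had 10 positive members, 6 of them at an unadjusted p under 0.05 and 5 with groups apart (Olfm4, Ascl2, Smoc2, Rnf43 and Lrig1), where 24.6% of genes had such a p and 14% lay apart as higher. The median was 0.47 over the members and -0.02 over all genes tested. Limma, edgeR and DESeq2 called 0 members and limma 0% of genes, with Smoc2 at 0.73 ± 0.21 (adjusted p = 0.0904) and Olfm4 at 1.09 ± 0.35 (adjusted p = 0.104). With receptor reads as a covariate Olfm4 (1.22) and Smoc2 (0.77) were called, beside 6.94% of genes. Leaving out the libraries with over 10% Rn45s kept only KO late mouse 57 and KO early mouse 117. Olfm4 was then at 0.11, Smoc2 at 0.26, Znrf3 at 0.12, Rnf43 at 0.02, Cd44 at -0.13 and Lgr5 at -0.42. Ascl2 (2.46), Lrig1 (0.77), Axin2 (0.44) and Sox9 (0.40) had larger positive differences there. Well expressed genes were shifted by 0.19, and with centred libraries Lgr5, Sox9 and Cd44 turned to -0.01, -0.03 and -0.16.

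Other lists were measured in the same comparison, in which 24.9% of all genes had an unadjusted p under 0.05. All 20 cell cycle genes were negative against WT irradiated ileum, with a median of -0.90, 15 at an unadjusted p under 0.05 and 0 called by limma, edgeR or DESeq2. All 8 Paneth cell markers were negative with a median of -1.85, 6 at an unadjusted p under 0.05, 0 called by limma or edgeR and 1 by DESeq2. Their sum was 3525 to 7789 normalised reads in KO early and 16784 to 18745 in WT irradiated ileum. Goblet cell markers were 8 of 8 negative, with sums of 60904 to 178352 in KO early and 143128 to 376313 in WT irradiated ileum. Of 16 leukocyte markers tested 10 were positive and 6 negative, with 6 at an unadjusted p under 0.05. Of 14 stromal markers 13 were positive, with 5 at such a p, and their sum was 572 to 925 normalised reads in KO early ileum, against 379 to 505 in WT irradiated ileum. Their part in the members' values was not tested.

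No member was called in KO late ileum. Against WT irradiated ileum limma, edgeR and DESeq2 called 0 members, with 0 at an unadjusted p under 0.05, where 0% of genes were called and 0.821% had such a p. The widest interval was that of Ascl2 (-1.85 to 0.99) and the narrowest that of Cd44 (-0.57 to 0.33). WT irradiated against WT non-irradiated mice compares chimeras with untreated animals of the same genotype, and gave 0 members by the 3 tools and 0 at an unadjusted p under 0.05 in both tissues, where 0% of genes were called in both and 0.345% in colon and 0.978% in ileum had such a p. In ileum Lgr5 and Rnf43 were lower in both WT irradiated mice than in the 3 WT non-irradiated ones (-0.18 ± 0.27 and -0.33 ± 0.23), where 4.15% of genes lay apart as lower.

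The KO difference in colon minus that in ileum was tested over all 24 libraries. Limma, edgeR and DESeq2 called 0 members for KO late, with 0 at an unadjusted p under 0.05, where limma called 0.189% of genes and 5.5% had such a p. Axin2 (-0.99 ± 0.48, adjusted p = 0.91), Lrig1 (-0.86 ± 0.44) and Olfm4 (1.24 ± 0.64) came nearest, and Sox9 was at -1.20 ± 0.69 with an interval of -2.62 to 0.22. With the mouse as a replicate block 4 members had an unadjusted p under 0.05 for KO late, Axin2 (0.0135), Olfm4 (0.0145), Lrig1 (0.0198) and Sox9 (0.0383), where 10.1% of genes did, and 0 were called, with adjusted p of 0.337 or more. For KO early the tools called 0 members, with 1 at an unadjusted p under 0.05 (Olfm4, 1.44 ± 0.61, adjusted p = 0.455), where 0.0408% of genes were called and 9.88% had such a p. Under the replicate block this was again 1 member, Olfm4 (limma adjusted p = 0.14), where 17.8% of genes had such a p. Well expressed genes were shifted by -0.15 for KO late and 0.17 for KO early in these contrasts. A difference between colon and ileum in how the members responded was therefore not shown.

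Of the pathway lists, few genes passed in the KO comparisons with WT irradiated mice. In KO late colon limma called 0 of 12 Wnt ligands and R-spondins, 0 of 11 receptors tested, 0 of 16 beta-catenin pathway components, 0 of 14 other Wnt targets tested, 0 of 14 other stem cell genes tested, 0 of 10 Notch genes tested, 0 of 14 BMP genes tested and 0 of 20 cell cycle genes. At an unadjusted p under 0.05 limma gave 1 to 3 genes of each list, where 16.5% of all genes had such a p. edgeR called 0 of them, and DESeq2, which called 4.2% of all genes, called 1 beta-catenin pathway component, 1 other stem cell gene, 1 Notch gene and 2 BMP genes. Of 10 regeneration-associated genes of injured epithelium tested, 2 were called and 10 were positive. Ly6a, the Sca-1 antigen of fetal-like crypts, had 12092 normalised reads in KO late mice and 1919 in WT irradiated mice (2.66 ± 0.42), and Anxa1 10053 and 2089 (2.25 ± 0.35). In KO early colon limma called 1 of this list, Ly6a (2.53 ± 0.39), where edgeR called 0 and DESeq2 2. Against both WT groups, the control chosen after the data were seen, limma called 4.12% of all genes in KO late colon. Tcf7l1 (-1.28 ± 0.33), the cell cycle kinase Cdk6 (-0.87 ± 0.23) and the BMP inhibitor Smad6 (-1.20 ± 0.25) were lower there, and Ly6a, Anxa1 and Il1rn (1.28 ± 0.31) higher. Their values in the settings that ended the calls of Sox9 and Axin2 are not given here. In ileum limma and edgeR called 0 genes of these lists in either KO group against WT irradiated mice, and DESeq2 called 1 receptor in KO early ileum. At an unadjusted p under 0.05 limma gave 4 Wnt ligands and R-spondins, 1 receptor, 3 beta-catenin pathway components, 2 other Wnt targets, 5 other stem cell genes, 2 Notch, 1 BMP, 4 regeneration-associated and 15 cell cycle genes there, where 24.9% of all genes had such a p.

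The members did not vary as 1 block across colon libraries. Over the 12 colon libraries, which share scaling and differ in group and background, Axin2, Lrig1, Rnf43 and Sox9 varied together. Pearson's r of log2 levels was 0.94 (rho 0.90, 0.89 without the 2 farthest libraries) for Axin2 with Lrig1, 0.94 (rho 0.94, 0.87 without the 2 farthest libraries) for Rnf43 with Lrig1 and 0.87 (rho 0.86, 0.82 without the 2 farthest libraries) for Axin2 with Sox9. Lgr5 and Olfm4 formed another pair at 0.83 (rho 0.66, 0.50 without the 2 farthest libraries) and ran against Sox9, at -0.73 (rho -0.61, -0.28 without the 2 farthest libraries) for Lgr5 and -0.76 (rho -0.64, -0.39 without the 2 farthest libraries) for Olfm4. These last 3 pairs were weaker without those libraries. In ileum 41 of the 45 pairs were positive, against 32 of 45 in colon, with r up to 0.92 for Olfm4 with Smoc2 and 0.91 for Ascl2 with Lrig1, and Lgr5 with Olfm4 at 0.88. These are descriptions over 12 libraries that include the group differences above.

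Receptor gene reads ran along the same axis in colon. Their log2 level had r of -0.91 with Lrig1, -0.90 with Axin2, -0.89 with Sox9 and -0.81 with Rnf43, and 0.76 with Olfm4 and 0.72 with Lgr5, over the 12 colon libraries. Spearman's rho was -0.85, -0.76, -0.86, -0.77, 0.64 and 0.75 for these 6 genes in that order. Without the 2 farthest libraries r was -0.82, -0.82, -0.87, -0.61, 0.60 and 0.51. In ileum r was -0.78 for Axin2, -0.73 for Sox9 and -0.71 for Lrig1, while Lgr5 was at -0.08. WT colon mice showed the same split, since mouse 61 and mouse 75, the WT mice with more receptor reads, had 221 and 164 normalised reads of Axin2, against 306 to 371.5 in the other 3 WT mice.

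**Figure D4:**
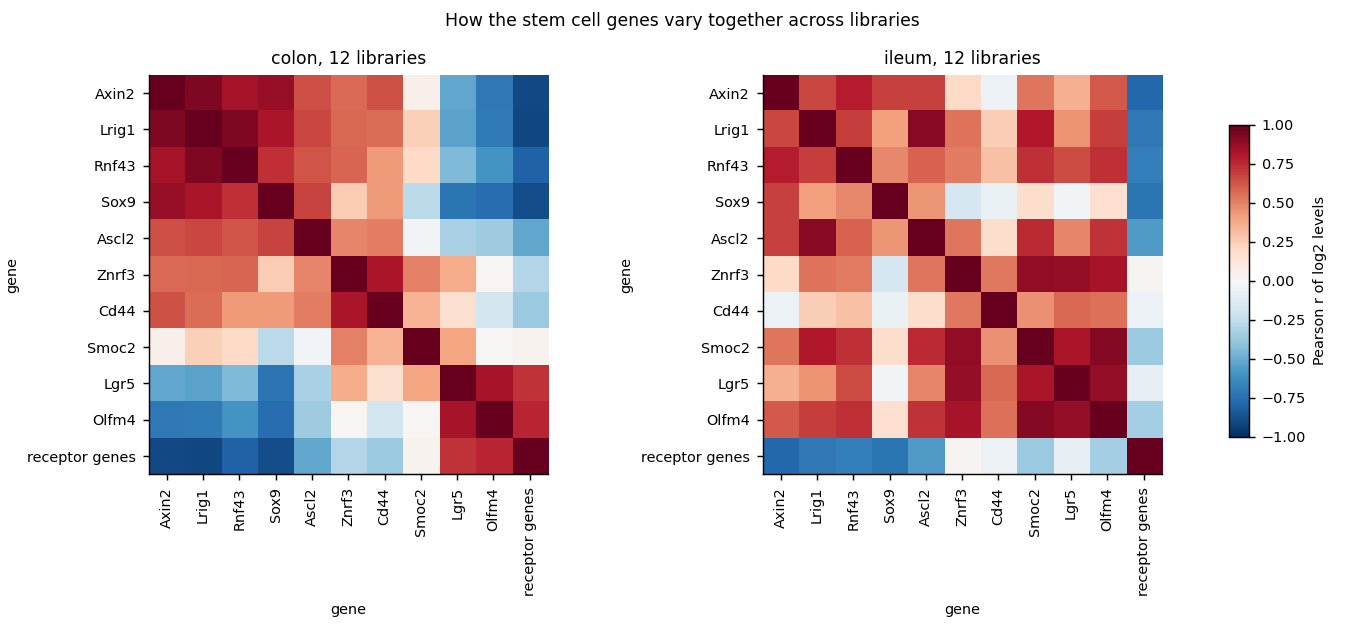
Pearson's r between log2 levels of the stem cell genes, and with reads in receptor genes, across 12 colon libraries (left) and 12 ileum libraries (right), with red for positive and blue for negative r. In colon Axin2, Lrig1, Rnf43 and Sox9 form a red block set against Lgr5, Olfm4 and the receptor genes, while the ileum panel is mostly red among the members.

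**Figure D5:**
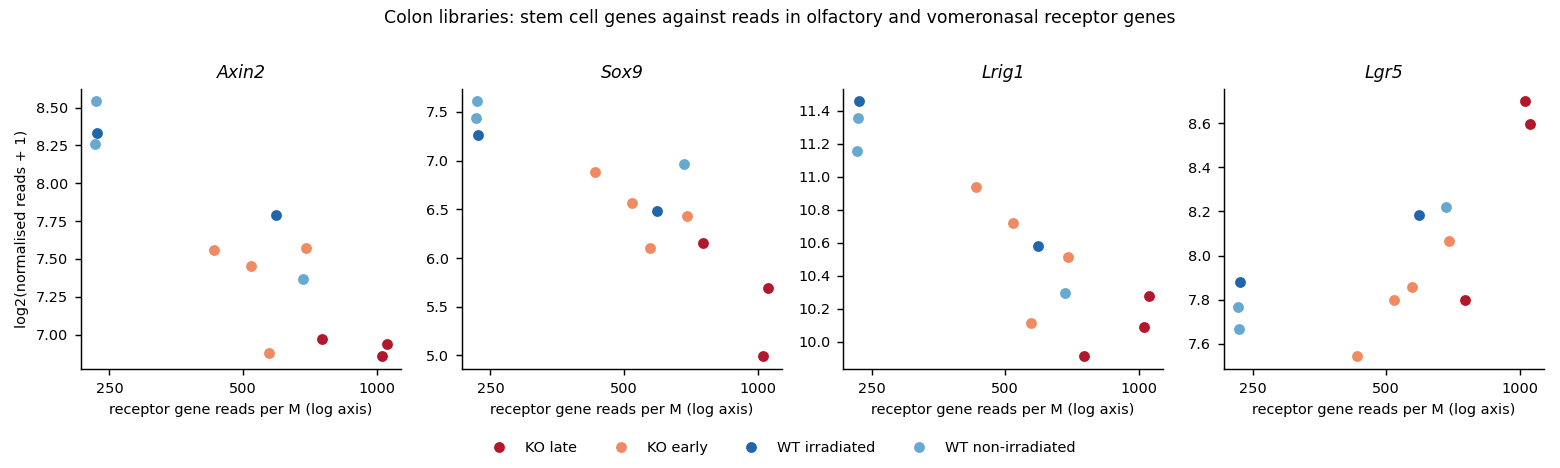
Level of Axin2, Sox9, Lrig1 and Lgr5 as log2(normalised reads + 1) against reads per M in olfactory and vomeronasal receptor genes (log axis) in the 12 colon libraries, with 1 dot per mouse coloured by group. The 3 KO late libraries lie at the high end, between 752 and 1052 reads per M, where Axin2, Sox9 and Lrig1 are low, and WT mice 61 and 75 lie near the KO early mice.

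The genes most like each member were taken as the 3 with the highest Pearson's r among the 10875 genes that averaged 100 normalised reads or more. Within colon (12 libraries) Lgr5 was most like Dach1 (0.96), Spag17 (0.95) and Dnah5 (0.95), Axin2 most like Dguok (0.98), Ilkap (0.98) and Ube3c (0.97), Sox9 most like Nfe2l2 (0.98), Slc39a14 (0.97) and Acp6 (0.97) and Lrig1 most like Mrps9 (0.98), Gm21992 (0.98) and P2ry6 (0.97). Within ileum (12 libraries) Lgr5 was most like Arhgef28 (0.96), Maml3 (0.96) and Cdk6 (0.92), Olfm4 most like Clic6 (0.95), Lyz1 (0.94) and Scml4 (0.93), of which Lyz1 is a Paneth cell lysozyme, and Cd44 most like Defa6 (0.84), Defa24 (0.81) and Plch1 (0.77), where Defa6 and Defa24 are Paneth cell defensins, a family of near-identical genes whose reads may be split among copies. Over all 24 libraries, where the tissue difference sets most of r, Lgr5 was most like Dach1 (0.96), Itga1 (0.91) and Gm27162 (0.89), Olfm4 most like Cps1 (0.99), Depdc7 (0.98) and Rragd (0.98), Axin2 most like Mlxipl (0.98), Baiap2l2 (0.97) and Fam53b (0.97) and Smoc2 most like Dtx4 (0.94), Elp2 (0.93) and Fsd1l (0.92). Dach1, a transcriptional regulator, headed the list for Lgr5 both over 24 libraries and in colon, and for Znrf3 in ileum (0.97). Its means were 779.5 ± 262 normalised reads in KO late colon, 487 ± 103 in KO early colon, 566 ± 136 in WT irradiated colon and 555 ± 162 in WT non-irradiated colon. For the remaining members the first gene had an r of 0.87 to 0.88 over 24 libraries, with Smyd2 for Ascl2, St6galnac2 for Rnf43, Gm1976 for Znrf3, Trrap for Sox9 and Stxbp6 for Cd44, and 0.93 for Limk2 with Lrig1.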

How the data were processed

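RNA of sorted epithelium was sequenced as single-end 50 bp reads after rRNA depletion of 100 ng total RNA, per the labels' protocols, although the molecule label says polyA RNA. Build mm9, HISAT 0.1.6 and HOMER are named in the submitters' processing notes, while whether counting used strand is not given there. The deposited values are a signal, reads after division by the library's size factor. Within 0.05, 100% of low values were whole multiples of 1 step per library (0.698 to 2.22), which gave back reads of 8.32 to 18.7 M per library. In 1 library, KO early ileum of mouse 118, the step lies so near 1 that rounding hides the multiples at the lowest values, and its whole reads did not pass a stricter check. Python 3.11.15, pandas 2.3.3 and numpy 2.4.6 were used.

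Genes reaching 10 normalised reads in 2 or more libraries of a fit were tested on log2(value + 1) with limma 3.58.1 (R 4.3.3, trend), with Benjamini-Hochberg adjustment over all of them and calls at an adjusted p under 0.05. The 12 libraries of a tissue shared 1 fit. Tissue comparisons and interactions used all 24. Their main fit took the colon and ileum libraries of a mouse as independent, and the mouse entered only in the replicate block setting. There were 13 such comparisons, and 4 with both WT groups as control were added after the data were seen. All p-values are two-sided. edgeR 4.0.16 (quasi-likelihood) and DESeq2 1.42.0 were run on recovered reads as alternatives. The limma step was tested on simulated data. Fold changes on this scale understate changes of low genes. All 10 stem cell genes were named in each tissue and group, and at most 4 called genes with the smallest adjusted p per list. The members and lists were chosen with earlier results of these data known. Colon and ileum libraries of 1 number came from 1 mouse. Correlations of their deviations from group means ran from -0.59 to 0.69 over 10 mice.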

Additional observations from a re-analysis of the deposited data

How the results depend on the processing

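Over the 10 stem cell genes and 17 comparisons, 2736 of 2810 recomputed differences kept their direction where called and their side of the threshold, 46 passed it newly, 28 no longer passed and 0 called differences reversed. Differences called in neither fit count as kept whatever their sign, so the 2736 are no measure of robustness. The 28 stand against few main calls. These were 5 members between WT tissues, 5 between KO late tissues, 2 between KO early tissues and 2 in KO late colon against both WT groups. Of 170 differences, 58 turned sign in some setting while not called. In KO late against WT irradiated colon, with 0 members called, DESeq2 called 2, WT non-irradiated mice as control gave 1 and both WT groups as control gave 2. Against both WT groups as control, fitting only the groups compared left 1 of 2, and receptor reads as a covariate or leaving out libraries over 10% Rn45s left 0. In KO early against both WT groups in ileum, with 0 called, DESeq2 called 6 and receptor reads as a covariate 1. In KO late against KO early ileum receptor reads as a covariate gave 2 in place of 0. For colon against ileum, leaving out libraries over 10% Rn45s left 3 of 5 in KO late mice. In KO early mice the count of 2 became 4 with DESeq2, 5 with the mouse as a replicate block and 5 with the receptor covariate. The replicate block changed no other call of a member. Leaving out 1 mouse at a time gave 4 to 5 called members for WT tissues, 4 to 4 for KO late tissues and 2 to 3 for KO early tissues, 0 to 6 for KO late colon and 0 to 6 for KO early ileum against both WT groups, and 0 to 0 in the other comparisons. The cause of these changes was not tested. The lone sample left in a group is assumed to vary like the other groups. Ascl2, with 0 to 36 reads per library, is limited by depth.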
